A study of Drosophila melanogaster with 12 samples.

Results

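The comparison described here is that of 30-day-old with 10-day-old male *Drosophila melanogaster*, and it asks which messenger RNAs differ in abundance between both ages in whole male flies. It rests on 6 of the 12 samples of the study, 3 of 30-day males and 3 of 10-day males, chosen by sex and age alone. All flies were of the strain w1118, a laboratory stock with white eyes that carries a mutation of the *white* gene, so no sample stands for a wild type with pigmented eyes. Males were mated, since they shared vials with females until day 3, and both ages received the same sugar and yeast diet. Each sample was a pool of 10 whole flies, and the samples of an age came from 3 independent experiments. The other 6 samples are females of 30 and of 10 days, which are used here only to ask whether an age difference in males differs from that in females.

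A male fly answers microbes with secreted peptides made mainly in the fat body, an organ with functions of liver and fat tissue. The signaling routes Toll and Imd drive these peptides through transcription factors of the NF-κB family, and peptidoglycan recognition proteins sense bacterial cell walls ahead of them. The male reproductive tract, which is large relative to the body, consists of the testis with its sperm, the accessory gland and the ejaculatory duct and bulb with their seminal proteins. Older flies are known for a higher baseline of immune peptides and for a slower renewal of the male germline.

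The 30-day libraries held 23097763 to 38990857 counts and the 10-day libraries 38199967 to 48613036. A single mitochondrial ribosomal RNA, lrRNA, took 15% to 17.5% of the counts at 30 days and 16.1% to 19.9% at 10 days. Of the 14760 genes listed at both ages, 13724 passed the filter on low counts. Replicate 2 of the 30-day males was the shallowest library and yet had 203 genes at 0, against 854 to 1769 in the other 5 male libraries. It held 1263 genes with 1 to 10 counts, against 124 to 324 in the others, so low counts are scarce in those libraries and a 0 there need not mean an absent RNA. Replicate 3 of the 30-day males had 164 genes at 0 that had at least 20 counts in each of the other 5 libraries, and it stood farthest from the rest on the first principal component. Replicate 3 of the 10-day males held 40.01 CPM (the usual unit of counts relative to scaled library size) of the yolk protein gene *Yp2* and 14.8 CPM of the eggshell gene *Vm26Aa*, which had at most 2.19 and 0.791 CPM in the other male libraries. The summed level of the female egg and eggshell genes was 56.1 to 60.8 CPM at 30 days and 48.5 to 112 CPM at 10 days. Not every egg gene sets females apart here. *grk* averaged 35.7 and 26.7 CPM in 30-day and 10-day males. In females it averaged 25.3 and 26.7 CPM on the scale of 12 libraries. The female genes *Yp1*, *Vm34Ca*, *otu* and *swa* were also highest in replicate 3 of the 10-day males, with 9.90, 4.25, 3.92 and 2.86 CPM. The oocyte gene *osk* reached its highest male value there too, at only 0.913 CPM. *bcd*, *grk* and the eggshell gene *Cp36* were not highest there, and *Cp36* had at most 0.186 CPM in any male library. The part of female RNA in the age differences was not tested. Testis, accessory gland, eye, nerve and muscle markers were present in every male library.

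At an adjusted p below 0.05 in edgeR's quasi-likelihood test, 379 genes were higher and 269 genes were lower in 30-day than in 10-day males. These are 2.76% and 1.96% of the genes tested, or 4.72% in all. The counts of each gene list below are to be read beside these shares. The lists were chosen with earlier results of these data known, so their counts are descriptions. Rises were larger than falls, with a median log2 fold change (30 over 10 days) of 1.12 among genes called higher and -0.84 among those called lower. A change of more than 2-fold was found for 228 higher and 70 lower genes, and one of more than 4-fold for 63 higher and 12 lower genes. The median over all genes tested was 0.01. Values did not overlap between the ages for 378 of the 379 higher genes and for all 269 lower genes. A lack of overlap is thus common to nearly all calls and adds no support for the single genes below. With total counts in place of TMM factors, which weigh library composition, 354 genes were higher and 491 lower. The counts also depended on single libraries. Without replicate 1, 2 or 3 of the 30-day males, 228, 627 and 195 genes were higher and 66, 1123 and 60 were lower. Without replicate 1, 2 or 3 of the 10-day males, 233, 115 and 136 were higher and 95, 28 and 55 were lower. Where calls of a gene list without a single library are given below, they are to be read beside these totals. Of the 121 called genes that the selection of genes by name took up, 48, 5 and 48 lost their call without replicate 1, 2 or 3 of the 30-day males, and 51, 74 and 60 without replicate 1, 2 or 3 of the 10-day males. Calls that were kept without any single library include *DptA*, *DptB*, *AttB*, *AttC*, *CecA1*, *CecA2*, *Drs*, *BaraA1*, *BomS3*, *BomT3*, *PGRP-SD*, *PGRP-SA*, *Mal-A4*, *Mal-B1*, *Tps1*, *Gba1a*, *bmm* and *Cyp6w1* among the higher genes and *Scp1*, *Acsx2*, *Obp83a*, *Os-C*, *Obp44a*, *Lsd-1*, *Cyp4d21* and *Cpr49Ag* among the lower genes. In whole flies, fewer cells of a type and less RNA per cell cannot be told apart, and this holds for all results below.

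**Figure D1:**
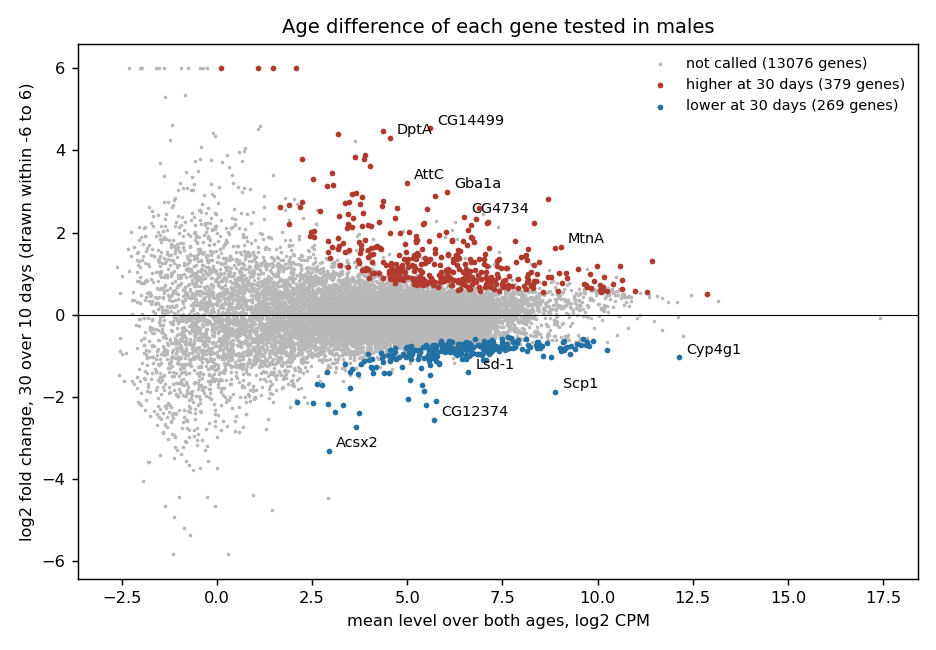
Each point is 1 of 13724 genes tested in males, with the mean level over both ages on the x axis (log2 CPM) and the log2 fold change of 30 over 10 days on the y axis, drawn at -6 or 6 where it lay beyond. Red points are the 379 genes higher at 30 days and blue points the 269 genes lower at 30 days, and the rises reach farther from 0 than the falls.

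Of 18 antimicrobial peptide genes tested, 11 were higher at 30 days and 0 were lower, against 2.76% higher over all genes, and their median log2 fold change was 2.49. Their summed level was 503, 556 and 540 CPM in the 30-day libraries, against 127, 101 and 110 CPM in the 10-day libraries. The groups thus lay far apart in every library, and the number of called members ranged from 9 to 12 when any single library was left out.

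The diptericins and attacins act on Gram-negative bacteria and are induced through Imd. *DptA* had 35.6, 29.8 and 67.0 CPM in 30-day males, against 3.26, 1.38 and 2.01 CPM in 10-day males, a 19.9-fold difference (log2 fold change 4.31 ± 0.39, SE; edgeR adjusted p = 0.00016). *DptB* had 26.6, 13.2 and 43.4 CPM in 30-day males, against 2.61, 2.06 and 0.934 CPM in 10-day males (log2 3.90 ± 0.47, edgeR adjusted p = 0.00086). Every old library lay above every young one for both genes, and old replicate 3 was highest. *AttC* had 72.3, 40.4 and 59.4 CPM in 30-day males, against 4.87, 6.49 and 7.16 CPM in 10-day males, a 9.29-fold difference (log2 3.22 ± 0.27, edgeR adjusted p = 0.00011). *AttB* had 35.8, 19.4 and 35.3 CPM in 30-day males, against 2.73, 2.35 and 2.30 CPM in 10-day males (log2 3.61 ± 0.31, edgeR adjusted p = 0.00011). The attacin *AttA* had 47.7, 16.1 and 54.0 CPM at 30 days and 3.60, 1.74 and 0 CPM at 10 days. *AttA* and *AttB* are near-identical copies whose reads the counting could have split, so their single values are uncertain. *Dro*, which encodes drosocin, another peptide against Gram-negative bacteria, had 19.3, 10.6 and 22.1 CPM at 30 days and 1.70, 0 and 0.768 CPM at 10 days (log2 4.39 ± 0.85, edgeR adjusted p = 0.013). Low counts are scarce in the 10-day libraries, so the size of this change is uncertain. The call of *Dro* was not kept under every alternative.

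Cecropins rose less. *CecA1* had 93.6, 153 and 101 CPM in 30-day males, against 40.3, 39.2 and 46.3 CPM in 10-day males (log2 1.46 ± 0.21, edgeR adjusted p = 0.0022). *CecA2* had 19.8, 19.2 and 16.3 CPM in 30-day males, against 1.94, 3.10 and 5.11 CPM in 10-day males (log2 2.44 ± 0.37, edgeR adjusted p = 0.0034). *CecA1* and *CecA2* are close copies, and their shares of reads carry the same doubt. *CecC* averaged 11.2 ± 2.34 CPM at 30 days and 1.93 ± 0.668 CPM at 10 days (SD, n = 3 each). The cecropin gene *CecB* was listed only in the table of 30 days, with 230, 20 and 136 counts in the males, and was not tested. *Listericin*, an antibacterial peptide gene, averaged 45.1 ± 5.33 CPM at 30 days and 11.4 ± 8.35 CPM at 10 days. The antifungal *Drs*, a readout of Toll, had 83.3, 169 and 60.9 CPM in 30-day males, against 27.2, 25.4 and 25.3 CPM in 10-day males, a 4.01-fold difference (log2 2.00 ± 0.30, edgeR adjusted p = 0.0036). The 7 members that did not pass the test averaged under 10 CPM at both ages. Among them *Def* had 3.31, 14.8 and 4.35 CPM at 30 days and 3.26, 0.194 and 0 CPM at 10 days, and *Drsl5* had 3.15, 7.12 and 3.43 CPM at 30 days and 9.85, 8.50 and 6.43 CPM at 10 days.

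**Figure D2:**
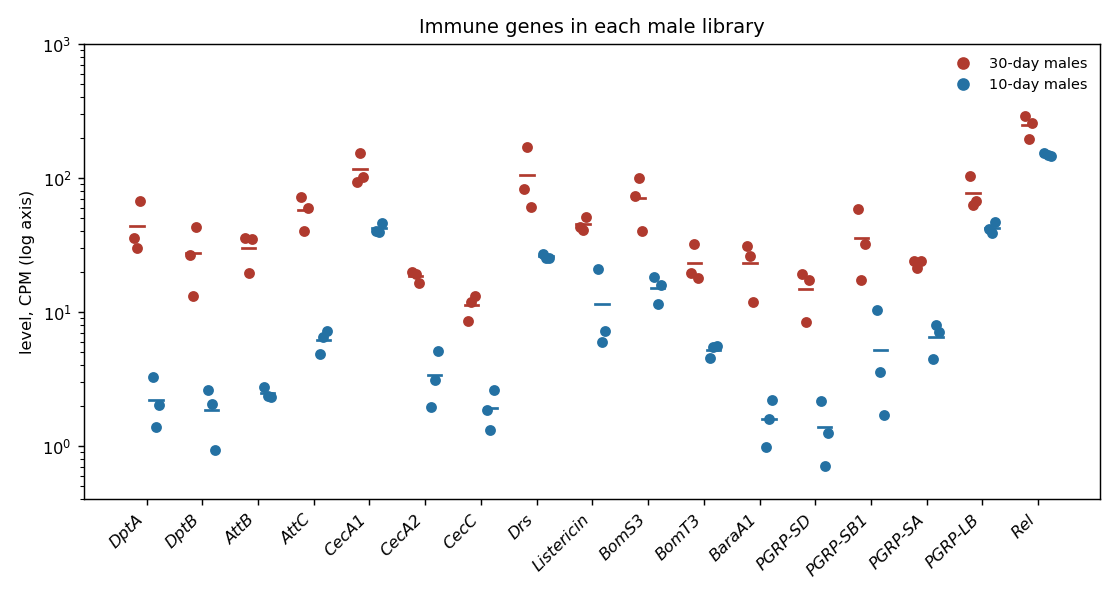
Level in CPM (log axis) of 17 immune genes in each male library, with 30-day males in red left of 10-day males in blue and bars at the means of 3 libraries. For each gene shown the 3 red points lie above the 3 blue points, as for *DptA* with 29.8 to 67.0 CPM at 30 days and 1.38 to 3.26 CPM at 10 days.

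Bomanins and Daisho peptides are short secreted peptides of the Toll response. Of 14 tested members 6 were higher (42.9%, beside 2.76% over all genes) and 0 lower. All 14 had a positive log2 fold change, and the median was 2.19. The count was 3 without replicate 1 or 2 of the 30-day males, 8 without their replicate 3, and 3 without replicate 1 or 3 of the 10-day males. *BomS3* had 73.2, 101 and 40.0 CPM in 30-day males, against 18.3, 11.4 and 15.8 CPM in 10-day males (log2 2.23 ± 0.31, edgeR adjusted p = 0.0019). *BomT3* had 19.4, 31.9 and 18.0 CPM in 30-day males, against 4.53, 5.45 and 5.54 CPM in 10-day males (log2 2.15 ± 0.30, edgeR adjusted p = 0.0020). Neither gene overlapped between the ages. *BomT1* had 284, 72 and 82 counts in 30-day males and 0 counts in all 3 10-day males. No fold is given for it, since low counts are scarce in the 10-day libraries. Several Bomanins are close copies of each other, and reads may have been split among them. *BaraA1*, the precursor of antifungal baramicin peptides, had 31.3, 26 and 11.8 CPM at 30 days and 0.983, 1.60 and 2.20 CPM at 10 days (log2 3.84 ± 0.43, edgeR adjusted p = 0.00059).

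Upstream of these effectors, of 11 peptidoglycan recognition proteins 4 were higher (36.4%, beside 2.76% over all genes) and 0 lower. The higher ones were sensors and amidases, and the median log2 fold change of the list was 0.64. The count was 2 without replicate 1 of the 30-day males and without replicate 2 or 3 of the 10-day males. *PGRP-SD*, a secreted sensor, had 19.1, 8.38 and 17.4 CPM in 30-day males, against 2.18, 0.703 and 1.25 CPM in 10-day males (log2 3.44 ± 0.49, edgeR adjusted p = 0.0023). *PGRP-SA*, the sensor that feeds Toll, had 24.1, 21.1 and 24.1 CPM at 30 days and 4.46, 7.97 and 7.14 CPM at 10 days (log2 1.83 ± 0.28, edgeR adjusted p = 0.0040). The amidases *PGRP-SB1* and *PGRP-LB*, which cut peptidoglycan, were also higher, with log2 fold changes of 2.78 ± 0.57 and 0.87 ± 0.21. *PGRP-SB1* varied widely, with 58.2, 17.3 and 31.9 CPM at 30 days and 10.4, 3.56 and 1.70 CPM at 10 days. The receptor *PGRP-LC*, which feeds Imd, had 79.8, 71.4 and 106 CPM at 30 days and 50.3, 54.7 and 60.5 CPM at 10 days and did not pass the test (edgeR adjusted p = 0.070).

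In the Imd pathway 1 of 13 genes was higher. This was *Rel*, the NF-κB factor of Imd, with 290, 195 and 259 CPM in 30-day males, against 153, 149 and 145 CPM in 10-day males (log2 0.73 ± 0.17, edgeR adjusted p = 0.029). Its call was lost without replicate 1 or 3 of the 30-day males and without any single 10-day library. Of 20 Toll pathway genes 0 passed the test in either direction, with a median of 0.45 and 18 positive values. DESeq2 and limma-voom also called 0 of them, and 2 were higher without replicate 2 of the 30-day males. *Dif*, an NF-κB factor of Toll, had 107, 71.2 and 103 CPM at 30 days and 64.9, 71.9 and 63.8 CPM at 10 days. The receptor *Tl* had 44.2, 26.1 and 38.9 CPM at 30 days and 41.3, 30.3 and 39.3 CPM at 10 days, values that overlap fully. Turandot and JAK-STAT genes, which answer stress and injury, gave 0 of 13 in both directions.

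**Figure D3:**
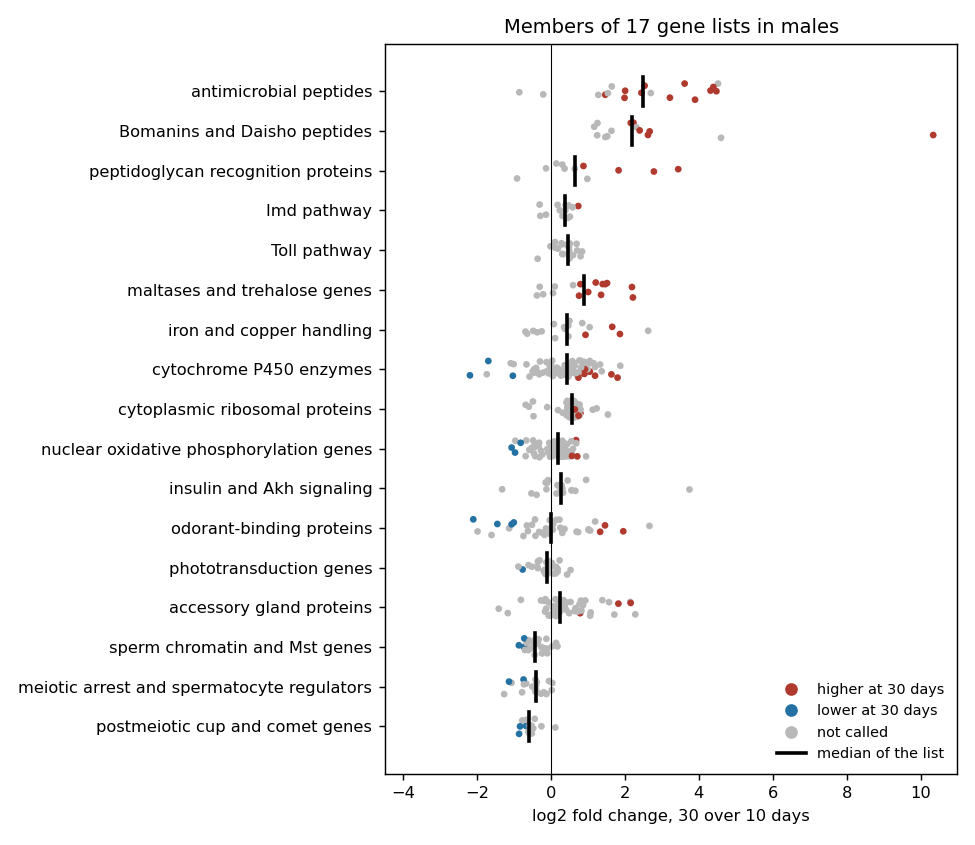
Log2 fold change of 30 over 10 days (x axis) for each tested member of 17 gene lists (rows), in red where higher at 30 days, blue where lower and grey where not called, with black bars at the list medians. The point at the far right is *BomT1*, which had no counts at 10 days, so its place depends on the fit. Antimicrobial peptides and Bomanins lie farthest to the right with medians of 2.49 and 2.19, while the 3 testis lists at the bottom have medians from -0.60 to -0.42.

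Genes for handling sugars formed the next group. Of 16 maltase and trehalose genes 10 were higher (62.5%, beside 2.76% over all genes) and 0 lower, and the median log2 fold change was 0.90. Maltases split maltose and related sugars in the gut. *Mal-A4* had 167, 167 and 168 CPM in 30-day males, against 47.6, 41.0 and 21.6 CPM in 10-day males, a 4.56-fold difference (log2 2.19 ± 0.25, edgeR adjusted p = 0.00059). *Mal-B1* had 72.1, 92.9 and 44.5 CPM in 30-day males, against 12.1, 11.3 and 21.7 CPM in 10-day males (log2 2.21 ± 0.31, edgeR adjusted p = 0.0020). The old libraries were close to each other for *Mal-A4* and spread for *Mal-B1*, and the ages did not overlap for either. *Mal-A3*, *Mal-A2*, *Mal-A7*, *Mal-A8*, *Mal-A1* and *Mal-B2* rose by log2 fold changes of 0.79 to 1.51. Replicate 3 of the 10-day males had the lowest value of *Mal-A1*, *Mal-A2*, *Mal-A4*, *Mal-A7* and *Mal-A8* among the male libraries.

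*Tps1*, which makes trehalose, the main blood sugar of flies, had 955, 1397 and 1210 CPM in 30-day males, against 573, 665 and 540 CPM in 10-day males, a 2.00-fold difference (log2 1.00 ± 0.17, edgeR adjusted p = 0.0061). *Treh*, which splits trehalose, had 241, 226 and 228 CPM at 30 days and 234, 223 and 214 CPM at 10 days (log2 0.05 ± 0.14). The count of 10 fell to 6 without replicate 1 or 3 of the 30-day males and to 5 without replicate 2 of the 10-day males. Of 17 glycolysis enzymes 1 was higher, the fat body hexokinase gene *Hex-C* with a log2 fold change of 0.80 ± 0.20, and 1 was lower, the aldolase paralog *Ald2* with -0.97 ± 0.20. Of 22 insulin and Akh genes 0 passed the test in edgeR with TMM factors. The brain insulin gene *Ilp2* had 72.2, 58.3 and 63.3 CPM at 30 days and 49.9, 41.5 and 40.8 CPM at 10 days (log2 0.55 ± 0.18, edgeR adjusted p = 0.094). The receptor gene of adipokinetic hormone, *AkhR*, had 12.3, 22.5 and 6.40 CPM at 30 days and 27.9, 39.1 and 35.9 CPM at 10 days (log2 -1.33 ± 0.36, edgeR adjusted p = 0.052). The ages did not overlap for *Ilp2* or *AkhR*. *AkhR* was called lower under RLE factors, total counts, the replicate block, DESeq2 and limma-voom and without replicate 2 of the 30-day males, but not without any other single library. In the fit without that old library, 2 other genes of the list were higher.

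Among genes with a mean of at least 10 CPM at the age where they were higher, the largest rise was that of *CG14499*, a gene with no function named here. It had 86.0, 97.9 and 93.7 CPM in 30-day males, against 8.65, 1.02 and 2.26 CPM in 10-day males, a 23.3-fold difference (log2 4.54 ± 0.57, edgeR adjusted p = 0.00095). *Gba1a*, a glucocerebrosidase gene, had 84.2, 127 and 138 CPM in 30-day males, against 20.7, 14.5 and 8.76 CPM in 10-day males (log2 2.99 ± 0.30, edgeR adjusted p = 0.00033). *CG4734* had 137, 165 and 153 CPM in 30-day males, against 35.4, 29.1 and 22.6 CPM in 10-day males (log2 2.39 ± 0.20, edgeR adjusted p = 0.00011). In each of these 3 genes the lowest old library lay above the highest young one, as in nearly all genes called higher. The chitinase gene *Cht4* and the genes *CG18557*, *CG8046* and *CG12310* rose by log2 fold changes of 2.95 to 3.79. A list of storage and fat body secreted proteins gave 3 higher (42.9%, beside 2.76% over all genes) and 0 lower of 7. The higher members were *Lsp2*, *Bace* and *Obp99b*, and whether their RNA came from the fat body was not tested. *Lsp2*, a storage protein best known from larvae, had 263, 283 and 204 counts in 30-day males and 0, 11 and 0 counts in 10-day males. *Bace*, a beta-secretase gene, averaged 113 ± 14.4 CPM at 30 days and 32.7 ± 4.21 CPM at 10 days.

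Detoxification genes were mixed. Cytochrome P450 enzymes gave 10 higher and 3 lower of 80, with a median of 0.43. These are 12.5% and 3.75%, beside 2.76% and 1.96% over all genes. *Cyp6w1* had 133, 151 and 127 CPM in 30-day males, against 47.3, 37.9 and 32.8 CPM in 10-day males (log2 1.80 ± 0.18, edgeR adjusted p = 0.00033). *Cyp4d21*, a P450 of the male head, had 15.6, 16.9 and 15.8 CPM in 30-day males, against 91.5, 47.8 and 82.4 CPM in 10-day males, a 4.59-fold lower level (log2 -2.20 ± 0.24, edgeR adjusted p = 0.00059). *Cyp4g1*, the oenocyte enzyme that completes cuticular hydrocarbons, had 2629, 2049 and 4128 CPM at 30 days and 4218, 5957 and 7891 CPM at 10 days (log2 -1.04 ± 0.25, edgeR adjusted p = 0.035). Its lowest young value lay just above its highest old value. The number of P450 genes called higher was 1 without replicate 3 of the 30-day males, 13 without their replicate 2, and 2 to 3 without any one 10-day library.

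Of 34 glutathione S-transferases 4 were higher and 1 was lower, or 11.8% and 2.94% beside 2.76% and 1.96% over all genes. The higher count was 1 to 2 without any one library other than replicate 2 of the 30-day males, where it was 4. *GstD5* had 14, 9.17 and 21.5 CPM in 30-day males, against 2.30, 2.23 and 0.498 CPM in 10-day males (log2 3.16 ± 0.54, edgeR adjusted p = 0.0073). *GstS1*, the sigma-class enzyme, had 259, 265 and 259 CPM in 30-day males, against 468, 497 and 416 CPM in 10-day males (log2 -0.82 ± 0.14, edgeR adjusted p = 0.0083). Of 11 small heat shock genes *l(2)efl* and *CG14207* were higher and *CG7409* was lower, and of 19 Hsp70 and Hsp90 chaperones only *Hsc70-4*, the constitutive form, was higher, at 0.55 ± 0.14. This call, at an edgeR adjusted p of 0.0495, was lost under RLE factors, total counts and the replicate block and without any single library other than replicate 2 of the 30-day males, where 3 chaperones were higher and 1 lower. The 6 inducible Hsp70 genes, near-identical copies at low levels, had log2 fold changes of 0.93 to 1.33 and did not pass the test. The small heat shock list gave 0 to 1 higher without any single library other than that replicate 2. Antioxidant enzymes gave 0 higher and 2 lower of 19, the peroxiredoxin gene *Prx6c* with -1.12 ± 0.20 and the testis thioredoxin *TrxT* with -0.67 ± 0.17. *Sod1* and *Cat*, the superoxide dismutase and catalase genes, had log2 fold changes of -0.07 and 0.03. The antioxidant list gave 2 higher and 3 lower without replicate 2 of the 30-day males, and without any other single library 0 higher and 0 to 1 lower.

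Metal-handling genes gave 3 higher (16.7%, beside 2.76% over all genes) and 0 lower of 18. The count was 4 with 2 lower without replicate 2 of the 30-day males, and 2, 1 and 2 without replicates 1, 2 and 3 of the 10-day males. The metallothionein gene *MtnA*, whose product binds copper, had 500, 1321 and 566 CPM in 30-day males, against 251, 235 and 273 CPM in 10-day males (log2 1.65 ± 0.30, edgeR adjusted p = 0.0088). Old replicate 2 had more than the other old libraries, yet all 3 lay above the young ones. The transferrins *Tsf1* and *Tsf3*, carriers of iron, rose by log2 fold changes of 0.93 ± 0.17 and 1.86 ± 0.34. Of 21 autophagy genes *Atg3* was higher and *Atg16* was lower, 4.76% each way beside 2.76% higher and 1.96% lower over all genes. Of 48 proteasome subunits 0 passed the test in edgeR. Without replicate 2 of the 30-day males 2 autophagy genes were higher and 2 lower and 8 proteasome subunits were lower. Without their replicate 3 or any one 10-day library 0 genes of both lists were called. DESeq2 called 1 proteasome subunit higher and 4 lower, limma-voom 4 lower.

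Of 92 cytoplasmic ribosomal protein genes 12 were higher and 0 lower, 87 had a positive log2 fold change, and the median was 0.58 beside 0.01 over all genes. Their summed level was 90364, 123750 and 104630 CPM in 30-day males, against 72141, 60521 and 83040 CPM in 10-day males. No library of one age overlapped the other in this sum. The number of called members depended on single libraries, as did the number over all genes. It was 6 without replicate 1 of the 30-day males, 10 without their replicate 2, with 1 lower, and 0 without their replicate 3 or without any one 10-day library. DESeq2 called 75 members higher, limma-voom 65 and edgeR with a replicate block 1. Mitochondrial ribosomal proteins gave 1 higher and 0 lower of 72, *mRpS22*. Of 85 nuclear genes of oxidative phosphorylation 3 were higher and 3 lower. These are 3.53% each way, beside 2.76% and 1.96% over all genes, so these few calls do not set the list apart. The higher ones were the complex I genes *ND-20*, *ND-24* and *ND-51* with log2 fold changes of 0.56 to 0.71. The lower ones were the paralogs *COX6AL2*, *ND-51L1* and *ND-B14.5AL* with -1.07 to -0.83. Without replicate 2 of the 30-day males 5 genes of this list were higher and 10 lower, and without any other single library 0 were higher and 0 to 1 lower. Of 21 mitochondrially encoded RNAs 0 passed the test in edgeR, while 5 were higher without replicate 2 of the 30-day males, 4 in DESeq2 and 2 in limma-voom. The muscle genes that were higher were the actin gene *Act57B* with 0.89 ± 0.16 and the titin-like *sls* with 0.60 ± 0.14, or 2 of 28 sarcomere genes, and *Mhc* had a log2 fold change of 0.20 ± 0.13. Among sarcomere genes 4 were higher and 1 lower without replicate 2 of the 30-day males, and without any other single library 1 was higher.

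The largest fall by the same minimum of 10 CPM was that of *Acsx2*, an acyl-CoA synthetase family gene, with 1.46, 1.12 and 1.59 CPM in 30-day males, against 17.7, 15.1 and 9.13 CPM in 10-day males. This is a 9.96-fold lower level (log2 -3.32 ± 0.40, edgeR adjusted p = 0.00084). *CG12374* had 16.5, 10.8 and 18.4 CPM in 30-day males, against 67.0, 131 and 71.0 CPM in 10-day males (log2 -2.55 ± 0.29, edgeR adjusted p = 0.00059). The most abundant gene among the large falls was *Scp1*, a sarcoplasmic calcium-binding protein. It had 234, 196 and 180 CPM in 30-day males, against 741, 671 and 818 CPM in 10-day males, a 3.65-fold lower level (log2 -1.87 ± 0.16, edgeR adjusted p = 0.00011). *CG13607* had 20.9, 19 and 16.3 CPM at 30 days and 66.3, 72.8 and 63.9 CPM at 10 days. In *Scp1* and *CG13607* each age formed a tight cluster apart from the other.

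Odorant-binding proteins, which carry odorants and other small molecules, split by member, with 3 higher and 4 lower of 38. These are 7.9% and 10.5%, beside 2.76% and 1.96% over all genes. *Obp83a*, of antennal sensilla, had 27.2, 10.8 and 23.2 CPM in 30-day males, against 122, 81.7 and 61.1 CPM in 10-day males, a 4.31-fold lower level (log2 -2.11 ± 0.33, edgeR adjusted p = 0.0041). Its neighbour *Obp83b* had 29.2, 14.2 and 34.5 CPM at 30 days and 92.5, 70.7 and 51.4 CPM at 10 days (log2 -1.46 ± 0.30, edgeR adjusted p = 0.018). *Os-C*, also of the antenna, had 15.8, 7.54 and 14.4 CPM at 30 days and 56.1, 56.8 and 44.8 CPM at 10 days (log2 -2.06 ± 0.27, edgeR adjusted p = 0.0013). Old replicate 2 was lowest in all 3 antennal genes. *Obp44a* and *Obp99a* fell by 1.01 and 1.07 on the log2 scale. The members that were higher were *Obp99b*, with 65, 133 and 75.9 CPM at 30 days and 20, 25.8 and 24.9 CPM at 10 days, *Obp51a*, listed also among the ejaculatory genes, with a log2 fold change of 1.46 ± 0.29, and *Obp56a* with 1.33 ± 0.34. Of the 72 odorant, gustatory and ionotropic receptors with enough counts 0 passed the test, at summed levels of only 154 to 173 CPM at 30 days and 183 to 212 CPM at 10 days.

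**Figure D4:**
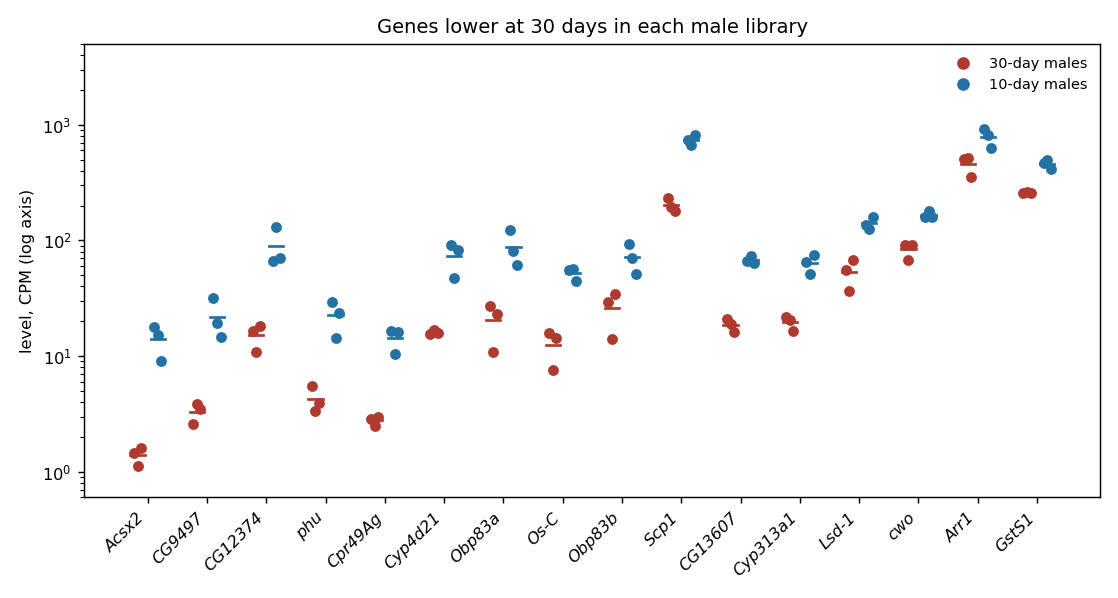
Level in CPM (log axis) of 16 genes that were lower at 30 days, in each male library, with 30-day males in red left of 10-day males in blue and bars at the means of 3 libraries. The 3 red points lie below the 3 blue points for every gene shown, from *Acsx2* with 1.12 to 1.59 CPM in old males to *GstS1* with 259 to 265 CPM.

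Of 26 lipid storage and synthesis genes 2 were higher and 1 was lower. These are 7.69% and 3.85%, beside 2.76% and 1.96% over all genes. *Lsd-1*, the perilipin that coats lipid droplets, had 55.9, 36.3 and 67.3 CPM in 30-day males, against 136, 125 and 160 CPM in 10-day males (log2 -1.40 ± 0.22, edgeR adjusted p = 0.0044). The triglyceride lipase gene *bmm* had 111, 157 and 169 CPM in 30-day males, against 46, 71.2 and 62.8 CPM in 10-day males (log2 1.28 ± 0.21, edgeR adjusted p = 0.0058). The lipase gene *Lip4* was higher as well, at 1.02 ± 0.22. The other 23 of 26 lipid genes did not pass the test, and the list median was 0.07. The number of lipid genes called higher was 4 without replicate 2 of the 30-day males, and without their replicate 3 or replicate 1 or 2 of the 10-day males it was 1. Of 13 clock genes 2 were lower (15.4%, beside 1.96% over all genes). The activator *Clk* had 50.2, 46.8 and 49.8 CPM at 30 days and 77.2, 92.0 and 83.1 CPM at 10 days. Its target *cwo*, a repressor, had 92.0, 68.2 and 90.9 CPM at 30 days and 160, 180 and 159 CPM at 10 days. The hour of collection is not given in the sources used here, and clock genes vary with it.

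In the eye 1 of 30 phototransduction genes was lower, *Arr1*, the arrestin that switches off rhodopsin, with 511, 520 and 353 CPM at 30 days and 924, 811 and 629 CPM at 10 days (log2 -0.77 ± 0.19, edgeR adjusted p = 0.037). The 1 call is 3.33% of the list, beside 1.96% lower over all genes. The list gave 0 calls without replicate 1 or 3 of the 30-day males and without replicate 1 or 2 of the 10-day males. The main rhodopsin gene *ninaE* had 2520, 2845 and 3361 CPM at 30 days and 3984, 3847 and 3355 CPM at 10 days, which overlap (log2 -0.36 ± 0.14, edgeR adjusted p = 0.17). Cuticle proteins gave 0 higher and 2 lower of 59 (3.39% lower), *Cpr49Ag* and *Cpr49Ae* with log2 fold changes of -2.37 ± 0.34 and -2.18 ± 0.54. Juvenile hormone and ecdysone genes gave 0 higher and 2 lower of 24, the juvenile hormone esterase gene *Jhe* with -2.12 ± 0.55 and the ecdysone-induced *MsrA* with -0.80 ± 0.17. Both hormone calls were lost without any single library other than replicate 2 of the 30-day males. Of 35 synaptic and neuronal genes 1 was higher (2.86%, beside 2.76% over all genes), the glutamate transporter gene *VGlut*, at 1.06 ± 0.24. The count was 6 without replicate 2 of the 30-day males and 0 without any other single library. The neuronal marker *elav* had 31.8, 17.7 and 34.0 CPM at 30 days and 20.5, 25.2 and 26.4 CPM at 10 days. Digestive proteases of the Jonah and trypsin families gave *Jon65Aiii* and *lambdaTry* higher and *Jon99Fii* lower of 27.

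The summed levels of 3 testis lists were lower in the old than in the young libraries, while old replicate 2 was higher than the other old ones. The list of sperm chromatin and Mst genes, which package sperm DNA and build the tail, gave 0 higher and 3 lower of 29, beside 1.96% lower over all genes, with a median of -0.45. Its summed level was 3944, 6450 and 3571 CPM in 30-day males, against 6659, 6553 and 6455 CPM in 10-day males, with old replicate 2 just under the young ones. Postmeiotic cup and comet genes, which are transcribed late in spermatids, gave 0 higher and 3 lower of 14 (21.4%, beside 1.96% over all genes). Their median was -0.60, with sums of 811, 1238 and 771 CPM at 30 days and 1370, 1435 and 1414 CPM at 10 days. Regulators of meiotic arrest and spermatocytes gave 0 higher and 2 lower of 20 (10.0%, beside 1.96% over all genes). Their median was -0.42, with sums of 754, 851 and 763 CPM at 30 days and 1074, 1350 and 1143 CPM at 10 days. Without replicate 2 of the 30-day males, 20 of the 29 sperm genes, 10 of the 14 cup and comet genes and 6 of the 20 regulators were lower. Over all genes 1123 of 13951 were lower in that fit, a larger background than the 269 of 13724 with all 6 libraries. They were 11.5% of the genes without a count in any female library and 7.51% of the other genes. Without any other single library, 0 to 1 of the sperm genes, 0 to 1 of the cup and comet genes and 0 to 2 of the regulators were lower. Over all genes only 28 to 95 were lower in those fits, so the loss of calls is not particular to these lists.

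The testis tubulin gene *betaTub85D* had 419, 591 and 446 CPM in 30-day males, against 776, 989 and 840 CPM in 10-day males, a 1.79-fold lower level (log2 -0.84 ± 0.17, edgeR adjusted p = 0.016). *Mst98Ca* had 575, 734 and 538 CPM at 30 days and 1094, 1008 and 985 CPM at 10 days (log2 -0.74 ± 0.15, edgeR adjusted p = 0.018). The cup genes *schuy* and *boly* had log2 fold changes of -0.84 ± 0.16 and -0.87 ± 0.20. *Mst87F*, a sperm tail gene, overlapped between the ages, with 496, 863 and 431 CPM at 30 days and 740, 564 and 753 CPM at 10 days. *bgcn*, which acts in the early male germline, had 11, 17.3 and 10.4 CPM at 30 days and 23.8, 32.7 and 28.6 CPM at 10 days (log2 -1.14 ± 0.26, edgeR adjusted p = 0.027). The Y-linked fertility genes, giants of the sperm flagellum, gave 0 of 11 in both directions, with 10 negative values and a median of -1.30. *kl-5*, a dynein chain among them, had 5.12, 4.24 and 3.29 CPM at 30 days and 10.2, 14.3 and 6.99 CPM at 10 days (log2 -1.32 ± 0.38, edgeR adjusted p = 0.068). Of 1793 tested genes without a count in any female library, 25 were lower (1.39%) and 12 higher (0.67%), both shares under those over all genes, with a median log2 fold change of -0.35. Without replicate 2 of the 30-day males, 216 of the genes of this kind that could be tested were lower (11.5%), against 907 (7.51%) of the genes with a count in a female library.

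Accessory gland proteins of the seminal fluid gave 3 higher and 0 lower of 55, with a median of 0.25 and 12 negative values, and summed to 15086, 19915 and 13936 CPM at 30 days and 14305, 10974 and 15338 CPM at 10 days, which overlap. *Acp26Ab* had 608, 787 and 619 CPM at 30 days and 416, 299 and 455 CPM at 10 days (log2 0.79 ± 0.18, edgeR adjusted p = 0.029). The major genes *Acp26Aa* and *Acp36DE* had log2 fold changes of 0.13 ± 0.15 and -0.15 ± 0.15 and did not pass the test. *SP*, the sex peptide that alters female behaviour after mating, had 23.8, 230 and 13.7 CPM at 30 days and 13.7, 12.1 and 29.2 CPM at 10 days, so a single old library decides its mean. Genes of the ejaculatory duct and bulb gave 4 higher and 0 lower of 14, or 28.6% higher, beside 5.45% of the accessory gland list and 2.76% over all genes. Among them the antibacterial *Anp* had 111, 392 and 111 CPM at 30 days and 45.7, 25.5 and 29.5 CPM at 10 days, and *Met75Ca* had 75.7, 433 and 53.1 CPM at 30 days and 42.4, 33.3 and 36.4 CPM at 10 days. Without replicate 2 of the 30-day males this list gave 4 higher and 3 lower, and the accessory gland list gave 2 higher and 4 lower. Without replicate 2 or 3 of the 10-day males 1 and 2 ejaculatory genes were higher, and without replicate 1, 2 or 3 of the 10-day males 0, 0 and 1 accessory gland genes were. The bulb gene *Ebp* had 16.0, 231 and 107 CPM at 30 days and 147, 197 and 316 CPM at 10 days.

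**Figure D5:**
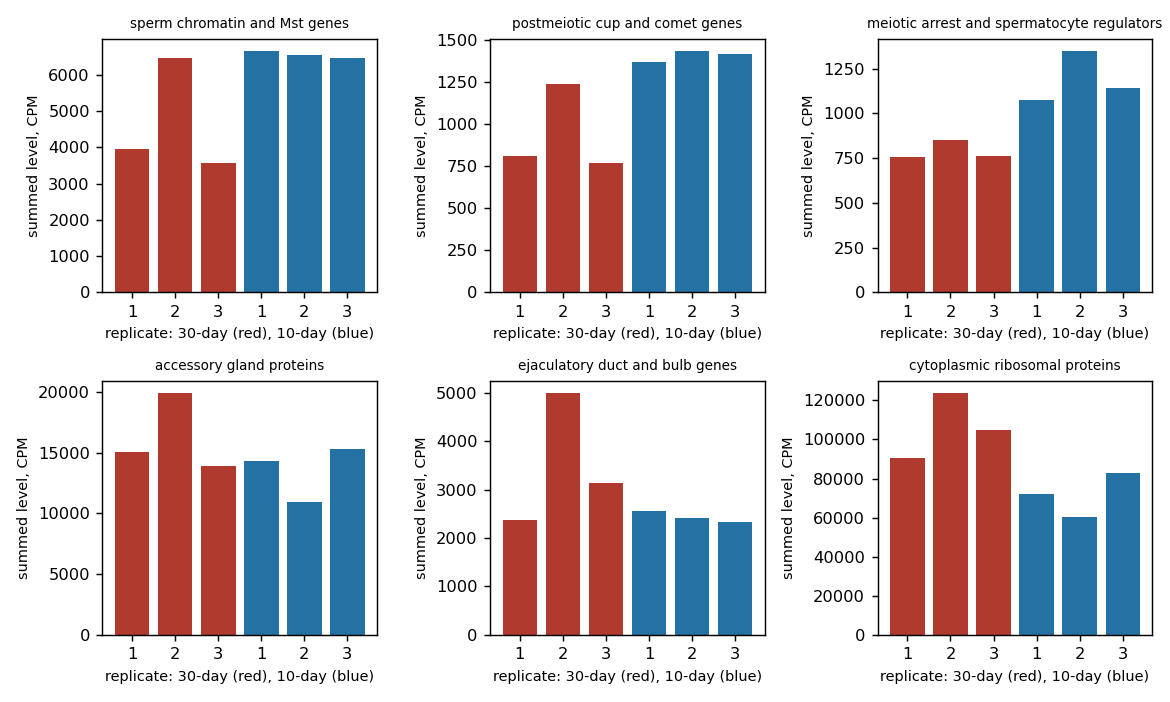
Summed level in CPM (y axis, from 0) of 5 reproductive gene lists and of the ribosomal protein genes in each male library, with 30-day replicates 1 to 3 in red left of 10-day replicates 1 to 3 in blue. Replicate 2 of the 30-day males is the highest of the old libraries in each panel, and the sperm genes sum to 6450 CPM there against 3944 and 3571 CPM in the other old libraries.

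The study itself compares 48 genes between the sexes for Toll, Imd, insulin, sugar and fat handling. Of these, 15 were higher (31.25%, beside 2.76% over all genes) and 0 lower at 30 days in males, with a median of 0.47. The study chose these genes on libraries of this series, so their number is not independent evidence of a direction. They comprise peptide genes (*Drs*, *CecA1*, *CecC*), *Rel*, *bmm*, *Tps1*, *Pepck2*, a gluconeogenic enzyme gene, and 8 maltases. The count was 9 to 12 without any single library other than replicate 2 of the 30-day males, where it was 19 with 1 lower. For 10-day flies the study also names *AttA*, *AttB*, *AttC*, *CecA2* and diptericin A (*DptA*) among genes it found only in males. The counts used here did not leave all of them at 0 in females. *AttB* had 0.58, 0.917 and 0.113 CPM in 10-day females, where *DptA* had 0 CPM. Replicate 3 of the 30-day females had 37.3 CPM of *DptA* and 31.4 CPM of *AttC*. These peptide genes are outside the 48 and were higher at 30 days here. *AttD* and *Drsl3*, which it names in the same way for 30-day flies, did not pass the test.

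To ask whether the age difference of males differed from that of females, the interaction of sex and age was tested over all 12 libraries. Of 14112 genes 2 passed the test (0.0142%), and 1838 had an unadjusted p below 0.05. DESeq2 called 541 genes and limma-voom 83. The age difference in females, tested in the same fit, gave 3 higher and 43 lower genes, and that in males gave 26 and 37 there, so this fit found fewer genes in either sex than the male libraries did alone. One of the 2 genes was *GstS1*. On the scale of 12 libraries it had 181, 218 and 196 CPM in 30-day females, against 125, 132 and 145 CPM in 10-day females, a female age difference of 0.57 on the log2 scale that did not pass the test (edgeR adjusted p = 0.076), while it was lower at 30 days in males (male minus female log2 difference -1.48, edgeR adjusted p = 0.016). The interaction call of *GstS1* was lost with the replicate block (edgeR adjusted p = 0.059), without replicate 1 or 3 of the 30-day males (0.092 each) and without replicate 1 of the 10-day males (0.073), at differences of -1.48 to -1.46. The other was *CG15570*, with a log2 fold change in males of -0.55 and one in females of -10.4 that rests on 30-day libraries near 0. For all other genes described above, a difference between the sexes did not pass this test, which does not show that the sexes aged alike.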

How the data were processed

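Poly(A) RNA of whole flies was sequenced. The authors deposited raw counts per NCBI gene, and these counts of the 6 male libraries (12 for the interaction) were the input. Aligner, counting tool, genome build and strand setting are not given in the sources used here. The other 36 columns of per-sample values (normalized values without decimal point, and short tables with counts, FPKM and p-values of the authors' comparison of the sexes) were not used. Symbols came from RefSeq. The 14760 genes listed at both ages were joined, and genes with low counts were dropped (filterByExpr, 10 counts and 15 in total). edgeR 4.0.16 in R 4.3.3 tested age with TMM factors, a quasi-likelihood F test and Benjamini-Hochberg adjustment over all genes at a threshold of 0.05. CPM are counts relative to the TMM-scaled library size in the usual unit. The alternatives exchanged the scaling (RLE, total counts, upper quartile), the filter, the tool (DESeq2 1.42.0 or limma-voom, limma 3.58.1), the libraries or genes fitted, and added a replicate block.

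The study used DESeq2 with a fold above 2. Genes given by name are the 15 largest changes in each direction among called genes with a mean of at least 10 CPM at the higher age and no overlap, up to 6 called members per list with the smallest p, the 5 smallest p-values in each direction, genes that check sex and tissue, and genes the study names. Values of other genes were chosen after they were seen. The comparison and the gene lists were chosen with earlier results of these data known. After values were seen, cyclophilins were taken out of the P450 list and the Mst57D genes were moved from the sperm to the accessory gland list. In simulated data for 30 against 10 days in males, with 13265 genes and 200 changed, 38% of 2-fold and 79% of 4-fold changes were recovered, with 9 false among 126 calls. For the age difference that differs between the sexes, with 13526 genes, these shares were 2% and 30%, with 2 false among 34 calls. The changed genes were drawn only from genes above a minimum mean count in males. Counts followed a negative binomial model, and the scarcity of low counts in the male libraries was not built in. These shares thus need not hold for the real libraries.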

Additional observations from a re-analysis of the deposited data

Results flagged for a closer look

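For *GstS1*, a glutathione S-transferase gene, the age difference itself differed between the sexes. Its log2 age difference in males minus that in females was -1.4809 in edgeR's test of the interaction over 12 libraries (adjusted p = 0.016). All 3 old male libraries lay below all 3 young ones. All 3 old female libraries lay above the young ones, though the female difference alone did not pass the test (edgeR adjusted p = 0.076). The interaction did not pass with the replicate block (0.059), without replicate 1 or 3 of the 30-day males (0.092 each) or without replicate 1 of the 10-day males (0.073), and its adjusted p over the other alternatives was 8.14e-16 to 0.044.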

How the results depend on the processing

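Of 121 named genes that passed the test, 43 (30 higher, 13 lower) did so under every alternative apart from all 12 libraries in 1 fit, and 6 under that as well. No named gene changed sign. For genes higher and lower in males (379 and 269), DESeq2 gave 696 and 693, limma-voom 639 and 695, all 12 libraries in 1 fit 26 and 37, and a fold above 2 left 228 and 70. Total counts gave 491 lower. Leaving out 1 library gave 115 to 627 higher and 28 to 1123 lower. For the age difference that differs between the sexes (2), DESeq2 gave 541, limma-voom 83, and leaving out 1 male library 0 to 4. Same-numbered samples did not deviate together (correlations of -0.0012 to 0.031). With 3 libraries per age this cannot show that they are unpaired. The replicate block gave 329 higher and 290 lower and 0 for the sex difference. After the data were seen, a filter of 100 counts (481 and 382) and a block with 30-day numbers 1 and 2 exchanged, as in a short table of the study (547 and 432), were added.

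The common biological coefficient of variation was 0.45, with 0.18 at 100 CPM and 0.46 at 5 CPM, so low genes were less well resolved. With 3 samples per age, a gene that missed the threshold is not shown to be stable. The origin of the excess of zeros in 5 of 6 male libraries is not given in the sources used here, and its part in the results was not tested. Libraries of both ages came in separate tables with different gene sets, so age and table cannot be told apart.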

Other observations

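The gene groups below were put together after values had been seen, so their counts are a description without support of their own. The lists of the main results were chosen with earlier results of these data known, so this limit touches their counts too. Precursors of neuropeptides, the peptide signals of neurons and gut endocrine cells, gave 12 higher and 0 lower of 35 tested, beside 2.76% higher over all genes, with a median log2 fold change of 0.72. Their summed level was 2068, 1718 and 1861 CPM in 30-day males, against 1192, 1277 and 1198 CPM in 10-day males, with no overlap. *Nplp1* averaged 213 ± 58.2 CPM at 30 days and 69.4 ± 2.23 CPM at 10 days (SD, n = 3 each), and *FMRFa* averaged 47.4 ± 16.1 CPM at 30 days and 14.4 ± 3.48 CPM at 10 days. *Capa*, whose peptides act on the renal tubules, had 71.5, 68.7 and 60.1 CPM at 30 days and 22.5, 26.5 and 31.8 CPM at 10 days. *Lst*, *NPF* and *AstA* rose by log2 fold changes of 1.36, 1.28 and 1.19. The count was 18, with 2 lower, without replicate 2 of the 30-day males, 7 and 8 without their replicates 1 and 3, and 7, 5 and 8 without replicates 1, 2 and 3 of the 10-day males.

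Enzymes of purine synthesis and of the folate cycle that feeds it gave 10 higher (55.6%, beside 2.76% over all genes) and 0 lower of 18. Their median was 0.84, with sums of 1366, 1532 and 1762 CPM at 30 days and 890, 889 and 804 CPM at 10 days. *pug*, a folate enzyme gene, averaged 167 ± 27.9 CPM at 30 days and 48.7 ± 12.2 CPM at 10 days. *Paics*, of purine ring assembly, averaged 245 ± 65.8 CPM at 30 days and 110 ± 7.65 CPM at 10 days. The genes *bur* and *ras*, which act later towards guanine nucleotides, had log2 fold changes of -0.15 and -0.01. The count was 6 without replicate 3 of the 30-day males and without replicate 2 or 3 of the 10-day males. The iron-sulfur cluster genes *Nfs1* and *IscU*, also chosen after their values were seen, rose by log2 fold changes of 1.11 and 0.84.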
